A study of Homo sapiens with 6 samples.

Results

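TIPARP and 6 genes of the aryl hydrocarbon receptor pathway were followed in Huh7 cells, a human hepatocellular carcinoma line, that had been given either a FLAG control lentivirus or a lentivirus carrying VPS72. The genes were AHR (the receptor), ARNT (its partner), AHRR (its repressor) and the target genes TIPARP, CYP1A1, CYP1A2 and CYP1B1. All 7 symbols were found among the 37822 genes of the deposited count table, and 6 of them passed a filter on low counts that kept 14253 genes. CYP1A2 did not pass it. TIPARP was chosen from the VPS72 against FLAG comparison, where it was among the genes that fell, and the other 6 were chosen by their roles around the receptor with results of that comparison already known. The values of TIPARP, its place among the called genes included, are therefore a description of how it was chosen, and no p-value is given for it.

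Each group holds 3 libraries. The FLAG cells carry the genotype label WT and the others the label VPS72 overexpression; both were infected, with virus left in the medium for 24 h. VPS72 binds the histone variant H2A.Z and works in the SRCAP and TIP60 complexes, which remodel chromatin. The labels do not say whether a group is a single infected culture, so the p-values reflect the spread among these libraries alone, and that spread may be technical.

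The aryl hydrocarbon receptor is a ligand-activated transcription factor of the bHLH-PAS family. It waits in the cytosol in a chaperone complex with HSP90, moves to the nucleus when it binds a ligand such as dioxin or a tryptophan metabolite, and there pairs with ARNT to bind response elements with the core GCGTG. Its targets include the CYP1 monooxygenases, which oxidise aromatic ligands, and AHRR, which represses the receptor. TIPARP, a mono-ADP-ribosyltransferase also called PARP7, is another target, and it modifies the receptor and restrains it. TIPARP is also induced by other signals, among them growth factors and steroid hormones. In liver the CYP1 enzymes are part of drug and toxin metabolism.

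The core element was looked for, as a description, on both strands in the 250 bases before annotated start sites (RefSeq, GRCh38.p14). Windows were matched for 6 of the 7 genes, CYP1B1 being the other. GCGTG was present in 32.2% of all 35116 windows, and the longer TNGCGTG, which contains it, in 4.52%. TIPARP held 2 matches before the most upstream of its 3 annotated starts and 0 before each of the others, CYP1A1 held 1, and AHRR held 1 and 2 before its 2 starts. No match lay in the windows of AHR, ARNT or CYP1A2. The TIPARP and CYP1A1 sites and 1 of the AHRR sites are shown 5′ to 3′ along the gene. The core or its reverse complement CACGC is in capitals. The 2 sites before the second AHRR start, at 247 and 42 bases, are left out. Those shown lie 208 and 142 bases before the start for TIPARP, 57 for CYP1A1 and 30 for AHRR.
TIPARP, chr3:156674370-156674399, plus strand: cgcgagaaaggaCACGCcccctcgcgggag
TIPARP, chr3:156674436-156674465, plus strand: cgaacgaacgcgCACGCgcgcgcagggggc
CYP1A1, chr15:74725568-74725597, minus strand: ccagggaaggagGCGTGgccacacgtacaa
AHRR, chr5:321672-321701, plus strand: ggcgggcggctcGCGTGccggggtggggca
The AHRR site shown also matched the longer form, and those left out did not. In GENCODE v29 the TIPARP and CYP1A1 stretches overlap an annotated exon of the same gene, and the AHRR stretch lies in no exon. The shares are per window, so a gene with more windows has more chances to hold a match. Elements farther than 250 bases before a start were not looked for. These matches are letters in a window, and binding of the receptor was not measured here.

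Total counts ran from 21345279 to 29091824 per library. VPS72 itself stood at 24.0 ± 2.70 CPM (counts relative to library size, scaled between libraries by edgeR's TMM method; mean ± SD, n = 3) in FLAG and 1161 ± 11.5 CPM in VPS72 libraries, so the labels and the targeted gene matched. All 10 hepatocyte markers passed the filter, and their summed level was higher in every VPS72 library, at 19207 to 20018 CPM in FLAG and 21678 to 22498 CPM in VPS72. Of 5 markers set for HEK293T cells, in which the virus was made, none passed the filter, NEFL was at 0 in every library, and their sum was at most 0.372 CPM. The 5 fibroblast markers summed to 9.91 to 11.3 CPM in FLAG and 10.1 to 10.6 CPM in VPS72, mostly COL1A1 and PDGFRB. Of these 5 markers, 4 passed the filter. DCN did not pass it, and was at 0 in FLAG replicate 1 and all VPS72 libraries and at most 0.157 CPM elsewhere. The 5 endothelial markers summed to 2.84 to 4.55 CPM and 4.13 to 4.94 CPM, mostly PECAM1, with CDH5, KDR and TEK at 0.19 CPM or less. The 5 immune markers summed to 10.8 to 12.5 CPM and 13.6 to 14.4 CPM, mostly LYZ, while PTPRC, which marks all leukocytes, was at 0 in 5 of 6 libraries. The part of the hepatocyte and immune marker shifts in the results below was not tested, and fewer cells of a type cannot be told apart from less RNA per cell.

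TIPARP fell, and CYP1A1 and CYP1B1 stood lower by a similar proportion without passing the test, while the log2 fold changes of AHR and ARNT, -0.10 and -0.01, did not pass either. Over all 14253 genes tested with edgeR's quasi-likelihood test, 88 were called at a Benjamini-Hochberg (BH) adjusted p of 0.05 (0.617%), 28 lower (0.196%) and 60 higher (0.421%). At an unadjusted p under 0.05 there were 1645 (11.5%), the share to read beside such counts for the lists below. Of the 6 members tested, 1 was called, TIPARP, the gene picked on this comparison. Groups did not overlap for 3 members, TIPARP, CYP1A1 and CYP1B1, all lower. Among all tested genes 17.2% had no overlap, and 8.47% had no overlap with VPS72 lower. Since TIPARP was picked on this comparison, the member counts are given beside these shares without being read as a result.

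**Figure D1:**
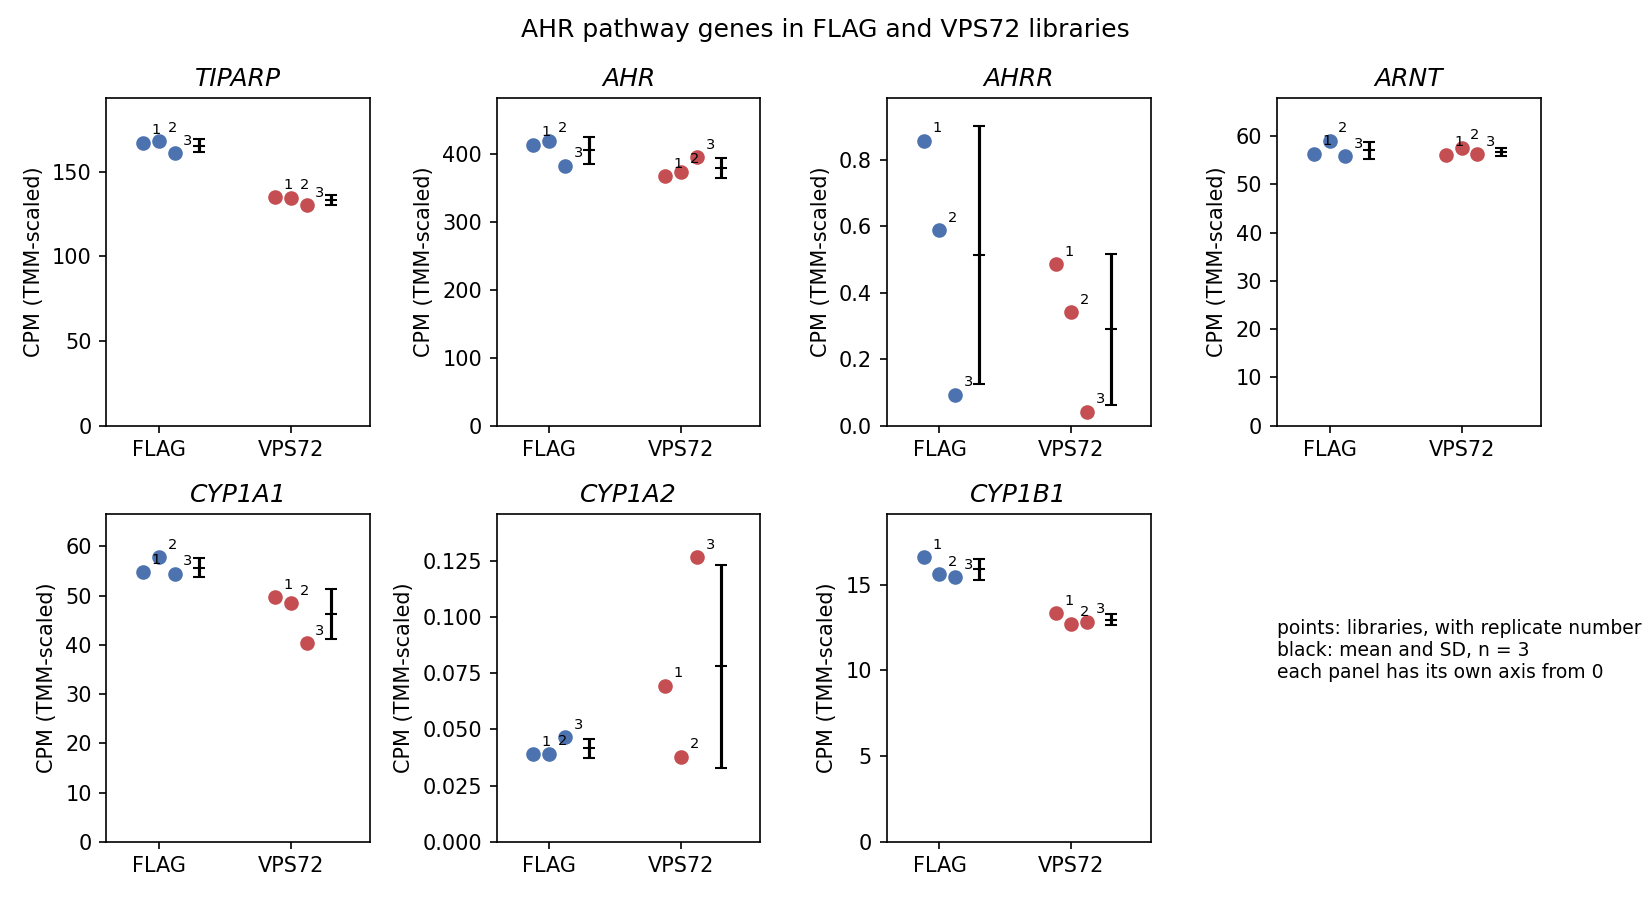
TMM-scaled CPM (vertical axes from 0, a separate scale in each panel) of the 7 genes in the FLAG (blue) and VPS72 (red) libraries, with replicate numbers beside the points and the mean and SD in black. The 3 VPS72 libraries lie below the 3 FLAG libraries for TIPARP, CYP1A1 and CYP1B1, whereas the groups overlap for AHR, AHRR, ARNT and CYP1A2.

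Per kilobase of annotated exon (GENCODE v29 lengths), the receptor was the most abundant of the 7 transcripts in FLAG libraries. AHR had 52.9 ± 2.57 RPKM, followed by TIPARP at 34.3 ± 0.83, CYP1A1 at 18.1 ± 0.60, ARNT at 11.5 ± 0.35 and CYP1B1 at 2.90 ± 0.11 RPKM. AHRR at 0.082 ± 0.062 and CYP1A2 at 0.015 ± 0.0016 RPKM were near the bottom of the measurable range. The order was the same in VPS72 libraries, with 49.4 ± 1.88 for AHR, 27.7 ± 0.56 for TIPARP, 15.0 ± 1.64 for CYP1A1, 11.5 ± 0.17 for ARNT and 2.36 ± 0.060 RPKM for CYP1B1. Neighbours in this order lay farther apart than the sum of their SDs in both groups, except AHRR and CYP1A2 in VPS72 libraries (0.046 ± 0.036 and 0.029 ± 0.017 RPKM). The lengths are those of the union of annotated exons, and the transcripts that Huh7 cells use may be shorter.

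AHR, the ligand-binding receptor, had 414, 419 and 383 CPM in FLAG replicates 1 to 3 and 368, 374 and 395 CPM in VPS72 replicates 1 to 3. The ranges overlapped, because VPS72 replicate 3 was above FLAG replicate 3. The group means were 405 ± 19.7 and 379 ± 14.4 CPM, a log2 fold change of -0.10 ± 0.04 (SE) that did not pass (edgeR BH-adjusted p = 0.367), with a 95% interval from -12.0% to -0.67%.

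ARNT, the nuclear partner that the receptor shares with hypoxia-inducible factors, was the most even of the members. It had 56.3, 59.0 and 55.8 CPM in FLAG and 56.2, 57.6 and 56.2 CPM in VPS72 libraries. Its log2 fold change was -0.01 ± 0.05 (edgeR BH-adjusted p = 0.973), and the 95% interval ran from -8.10% to 7.30%. The sign turned positive without FLAG replicate 2 (0.02) and without VPS72 replicate 1 (0.0022). ARNT lies on the chromosome of VPS72, with 17 protein-coding genes between them in RefSeq (GRCh38.p14). Of these, 12 were tested, and the smallest edgeR BH-adjusted p among them was 0.446.

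AHRR, the repressor of the receptor, was barely detected. It had 22, 15 and 2 counts in FLAG and 14, 9 and 1 counts in VPS72 libraries. Replicate 3 was the lowest library of either group, and the groups overlapped. The log2 fold change of -0.80 ± 0.73 did not pass (edgeR BH-adjusted p = 0.748), and its 95% interval from -80.3% to 67.1%, which takes in the spread between libraries, spanned both directions. Summed over each group there were 39 and 24 counts, a ratio of VPS72 to FLAG of 0.567 with an exact 95% interval of 0.326 to 0.967 that covers counting error only and leaves out that spread. The value was -0.24 without FLAG replicate 1, -0.33 without VPS72 replicate 3, -1.27 without FLAG replicate 3 and -1.38 without VPS72 replicate 1. PDCD6, whose gene lies beside AHRR and forms readthrough transcripts with it, had 9.56 ± 0.79 and 9.55 ± 1.28 CPM. The labels do not say how the counting divided readthrough reads between them.

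TIPARP, the ADP-ribosyltransferase of the pathway, had 167, 168 and 161 CPM in FLAG replicates 1 to 3 and 135, 135 and 130.1 CPM in VPS72 replicates 1 to 3. The 3 values of each group lay close together, and the lowest FLAG library was well above the highest VPS72 library. The means were 165 ± 3.97 and 133 ± 2.71 CPM, a decrease of 19.4% (log2 fold change -0.31 ± 0.04). TIPARP was 16th by size of fall among the 28 genes called lower, whose median log2 fold change was -0.39. Its antisense gene TIPARP-AS1 had 0 to 4 counts per library against 3080 to 4286 for TIPARP, and was not tested.

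CYP1A1, the most inducible of the receptor's target enzymes, had 54.8, 57.8 and 54.5 CPM in FLAG and 49.7, 48.5 and 40.4 CPM in VPS72 libraries. All VPS72 libraries were below all FLAG libraries, and VPS72 replicate 3 was the lowest by a wide margin. The means were 55.7 ± 1.86 and 46.2 ± 5.06 CPM, 16.9% lower (log2 fold change -0.27 ± 0.07, 95% interval -25.3% to -7.55%). It did not pass with edgeR (Benjamini-Hochberg adjusted p = 0.125). It did pass with DESeq2 (log2 fold change -0.27; BH-adjusted p = 0.0393) and in edgeR with no filter on low counts (-0.26; 0.0103), and over all its alternatives the adjusted p ran from 0.0103 to 0.318. Without VPS72 replicate 3 the log2 fold change was -0.18.

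CYP1B1, the extrahepatic member of the enzyme family, had 16.6, 15.6 and 15.4 CPM in FLAG and 13.3, 12.7 and 12.8 CPM in VPS72 libraries. The groups did not overlap and the spread within each was small. Its mean went from 15.9 ± 0.63 to 12.9 ± 0.33 CPM, 18.5% lower (log2 fold change -0.30 ± 0.10, 95% interval -29.6% to -5.71%), and it did not pass (edgeR BH-adjusted p = 0.226). Its antisense gene CYP1B1-AS1 had 2 to 17 counts per library against 304 to 426 for CYP1B1, and had a log2 fold change of -0.02 ± 0.61.

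CYP1A2, the main CYP1 enzyme of adult liver, was near absent, with 1 count in each FLAG library and 2, 1 and 3 counts in VPS72 libraries. From the 3 and 6 counts per group, the ratio of VPS72 to FLAG was 1.84, with an exact 95% interval of 0.393 to 11.4 that covers counting error only. No difference was detectable at this depth.

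**Figure D2:**
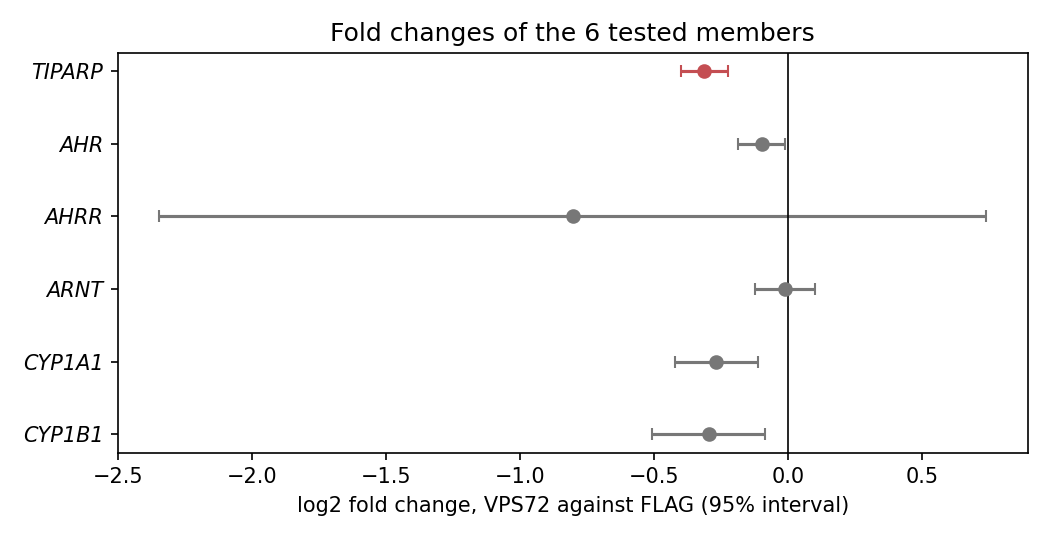
Log2 fold change of VPS72 against FLAG (horizontal axis) for the 6 tested members, with edgeR's 95% intervals as bars; red marks TIPARP, the gene picked on this comparison, and grey those that did not pass. TIPARP, CYP1A1 and CYP1B1 sit between -0.31 and -0.27, ARNT at -0.01, and the interval of AHRR spans both directions.

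Ratios of counts within a library need no scaling between libraries, so the target genes were also set against ARNT. TIPARP had 2.96, 2.85 and 2.88 counts per count of ARNT in FLAG libraries and 2.40, 2.34 and 2.31 in VPS72 libraries. For CYP1A1 the ratio was 0.972, 0.980 and 0.977 in FLAG and 0.885, 0.842 and 0.719 in VPS72. For CYP1B1 it was 0.295, 0.265 and 0.277 against 0.237, 0.220 and 0.228. None of the 3 ratios overlapped between groups, whereas that of AHR to ARNT did, at 6.86 to 7.34 in FLAG and 6.49 to 7.03 in VPS72. Over the 14252 other tested genes the ratio to ARNT had no overlap for 16%, and for 6.93% with VPS72 lower. TIPARP was picked on this comparison and ARNT was even, so the ratios largely repeat the CPM values above. They are set beside these shares without being read as a result. A ratio of this kind shows unequal change of a pair of transcripts and not which of them moved.

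The library profile of each gene, its log2 CPM centred on its own mean, was compared with that of TIPARP over the 6 libraries by root mean square difference. The median difference over 10415 profiles with a mean of at least 5 CPM was 0.18 log2 units. CYP1B1 had the third smallest, at 0.037. The 5 nearest were TLE4, a Groucho-family corepressor (0.032), ZNF146, a zinc finger protein (0.034), CYP1B1, ZNF226, another zinc finger protein (0.038), and MECR, an enoyl reductase of mitochondrial fatty acid synthesis (0.043). CYP1A1 ranked at 146 with 0.082, AHR at 842 with 0.12 and ARNT at 2622 with 0.15. The measure takes in the difference between groups by which TIPARP was chosen, and all points share the same libraries, so nearness is a description.

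**Figure D3:**
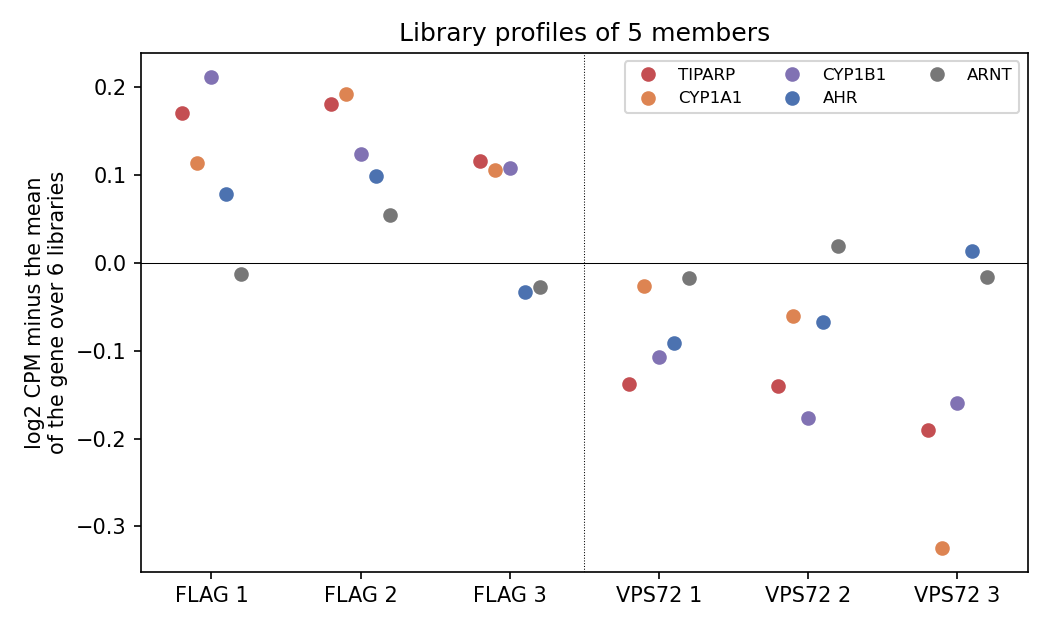
Log2 CPM of 5 members minus each gene's mean over the 6 libraries (vertical axis), by library (horizontal axis, FLAG left and VPS72 right of the dotted line). TIPARP, CYP1A1 and CYP1B1 are above 0 in all FLAG and below 0 in all VPS72 libraries, CYP1A1 is lowest in VPS72 replicate 3, and ARNT stays near 0 throughout.

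Among those nearest genes, ZNF146 had 90.7 ± 3.08 CPM in FLAG and 74.9 ± 3.11 CPM in VPS72 libraries (log2 fold change -0.27 ± 0.05). The log2 fold changes were -0.27 ± 0.08 for TLE4, -0.29 ± 0.08 for ZNF226 and -0.30 ± 0.11 for MECR. These genes were picked for a profile that holds the difference between groups, so no test of it is given for them.

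Other genes that the receptor is known to induce were split evenly in sign. Of 21 listed targets outside the members, 16 were tested and 0 were called by edgeR. At an unadjusted p under 0.05 there were 4, of which 2 were lower and 2 higher. DESeq2 called 1, NQO1. Of the 16, 8 had a negative and 8 a positive log2 fold change; their median was -0.02 against -0.00 over all tested genes. Groups did not overlap for 3 of the 16, beside 17.2% of all tested genes. NQO1, the quinone reductase that NRF2 also induces, was at 192, 204 and 203 CPM in FLAG and 227, 218 and 218 CPM in VPS72 (log2 fold change 0.14 ± 0.04; edgeR BH-adjusted p = 0.132). It was thus on the other side from TIPARP, and passed with DESeq2 (BH-adjusted p = 0.0249). The other genes without overlap, UGT1A1, which conjugates bilirubin (0.90 ± 0.28 and 1.59 ± 0.25 CPM), and XDH, xanthine dehydrogenase (2.69 ± 0.48 and 2.05 ± 0.13 CPM), differed in opposite directions at low levels without passing and are named after their values were seen. NFE2L2, which encodes NRF2, had a log2 fold change of -0.04 ± 0.04 and SLC7A5, a large neutral amino acid transporter that carries kynurenine, of 0.01 ± 0.05. ALDH3A1, a classical target in liver cells, had 11 to 23 counts per FLAG library and 2 to 13 in VPS72 (log2 fold change -1.45 ± 0.65; edgeR BH-adjusted p = 0.402), and the groups overlapped. EREG, epiregulin, had 13.1 ± 1.49 CPM in FLAG and 10.5 ± 2.16 CPM in VPS72 libraries, with overlap. Its log2 fold change was -0.33 ± 0.15 (edgeR BH-adjusted p = 0.411). ALDH3A1 and EREG too are named after their values were seen, as are IDO1, PTGS2 and SERPINB2, which had 0 counts in every library.

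Transcripts of the partners that hold the receptor in the cytosol or act on it included no called gene. Of 9 chaperone, transport and degradation partners, 9 were tested and 0 called by edgeR or DESeq2 (1 at an unadjusted p under 0.05), with a median of 0.04. HSP90AA1, the inducible HSP90, went from 882 ± 20.5 to 937 ± 22.4 CPM (log2 fold change 0.09 ± 0.03; edgeR BH-adjusted p = 0.239), without overlap. HSP90AB1, the constitutive HSP90 (0.06 ± 0.03), and DDB1, an adaptor of the CUL4B ubiquitin ligase in which the receptor also serves (0.06 ± 0.04), did not pass. The median of this list was 0.0063 with library size alone and -0.0060 with the abundance trend removed. Of 13 coactivators and corepressors, 0 were called by edgeR or DESeq2 (3 at an unadjusted p under 0.05) and the median was -0.05, which turned to 0.0064 without VPS72 replicate 1. NCOR1, a corepressor, had a log2 fold change of -0.06 ± 0.04, EP300, an acetyltransferase, of -0.01 ± 0.04, and NCOA2, a p160 coactivator, of 0.06 ± 0.04.

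Relatives of ARNT and the genes that depend on it held no called gene in edgeR with the filter on low counts. Of 13 other bHLH-PAS genes, 8 were tested and 0 called by edgeR or DESeq2 (3 at an unadjusted p under 0.05), with a median of 0.0015 that ran from -0.06 to 0.01 over the alternatives. EPAS1, which encodes HIF-2 alpha, had 0.06 ± 0.03, HIF1A -0.00 ± 0.03, and NPAS2, a clock factor that pairs with BMAL1, -0.16 ± 0.05 (edgeR BH-adjusted p = 0.155). ARNT2, the close paralogue of ARNT, had a mean of 0.019 CPM and was not tested. HIF3A, also below the filter, had 9, 16 and 13 counts in FLAG and 2, 4 and 3 in VPS72 libraries, without overlap. SIM2, likewise untested, had 4, 6 and 4 counts against 2, 2 and 0, without overlap. The other untested genes, NPAS3 and NPAS4, had 0 to 2 counts per library and overlapped. These untested genes were singled out with their values in view, and no share without overlap was taken over untested genes. Among the 8 tested, groups did not overlap for 2, EPAS1 (higher in VPS72) and NPAS2 (lower), beside 17.2% of all tested genes. Of 14 hypoxia-inducible targets, which are bound by HIF subunits paired with ARNT, 13 were tested and 0 called by edgeR (2 at an unadjusted p under 0.05; 1 by DESeq2, LDHA), with a median of -0.01 that ran from -0.04 to 0.04. LDHA, lactate dehydrogenase, had 496 ± 15.5 and 547 ± 19.7 CPM (log2 fold change 0.14 ± 0.04; edgeR BH-adjusted p = 0.0989) and passed with DESeq2 (BH-adjusted p = 0.00941) and in edgeR with no filter (0.0111). VEGFA, the angiogenic growth factor (-0.03 ± 0.05), and NDRG1 (0.03 ± 0.05) did not pass.

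All 21 other listed genes from families that attach or remove ADP-ribose were tested. Of these, 0 were called by edgeR (2 at an unadjusted p under 0.05). DESeq2 called 1, ZC3HAV1. The log2 fold change was negative for 15 and positive for 6, with a median of -0.07. Over all tested genes it was negative for 7298 and positive for 6955, with a median of -0.0038. ZC3HAV1, the antiviral zinc finger protein PARP13, which TIPARP is known to modify, had 224, 217 and 205 CPM in FLAG and 244, 235 and 243 CPM in VPS72. The groups did not overlap, with VPS72 higher, the opposite side from TIPARP (log2 fold change 0.16 ± 0.04; edgeR BH-adjusted p = 0.102). It passed with DESeq2 (BH-adjusted p = 0.0114) and in edgeR with no filter (0.021). PARP1, the main DNA damage sensor of the family (0.07 ± 0.04), and TNKS2, a tankyrase (-0.03 ± 0.05), did not pass.

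The kynurenine pathway makes tryptophan metabolites that can act as ligands of the receptor. Of its 13 listed genes 9 were tested and 0 called by edgeR (2 at an unadjusted p under 0.05). Their median was -0.10 and ran from -0.18 to 0.04 over the alternatives. DESeq2 also called 0, but it gave no adjusted p for KYAT3, so its 0 does not cover all 9. QPRT, which leads quinolinate to NAD, had 142 ± 1.35 and 156 ± 5.48 CPM (log2 fold change 0.14 ± 0.04; edgeR BH-adjusted p = 0.173). AFMID (0.08 ± 0.10) and KYAT3 (-0.10 ± 0.11) did not pass. TDO2, the tryptophan dioxygenase of liver, had a mean of 1.55 CPM with a log2 fold change of 0.20 ± 0.36. Groups did not overlap for 3 of the 9, beside 17.2% of all tested genes. KYNU (-0.49 ± 0.20, edgeR BH-adjusted p = 0.330) and AADAT (-0.30 ± 0.15, 0.484) were lower in VPS72 and QPRT was higher. TDO2, KYNU and AADAT are named after their values were seen.

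**Figure D4:**
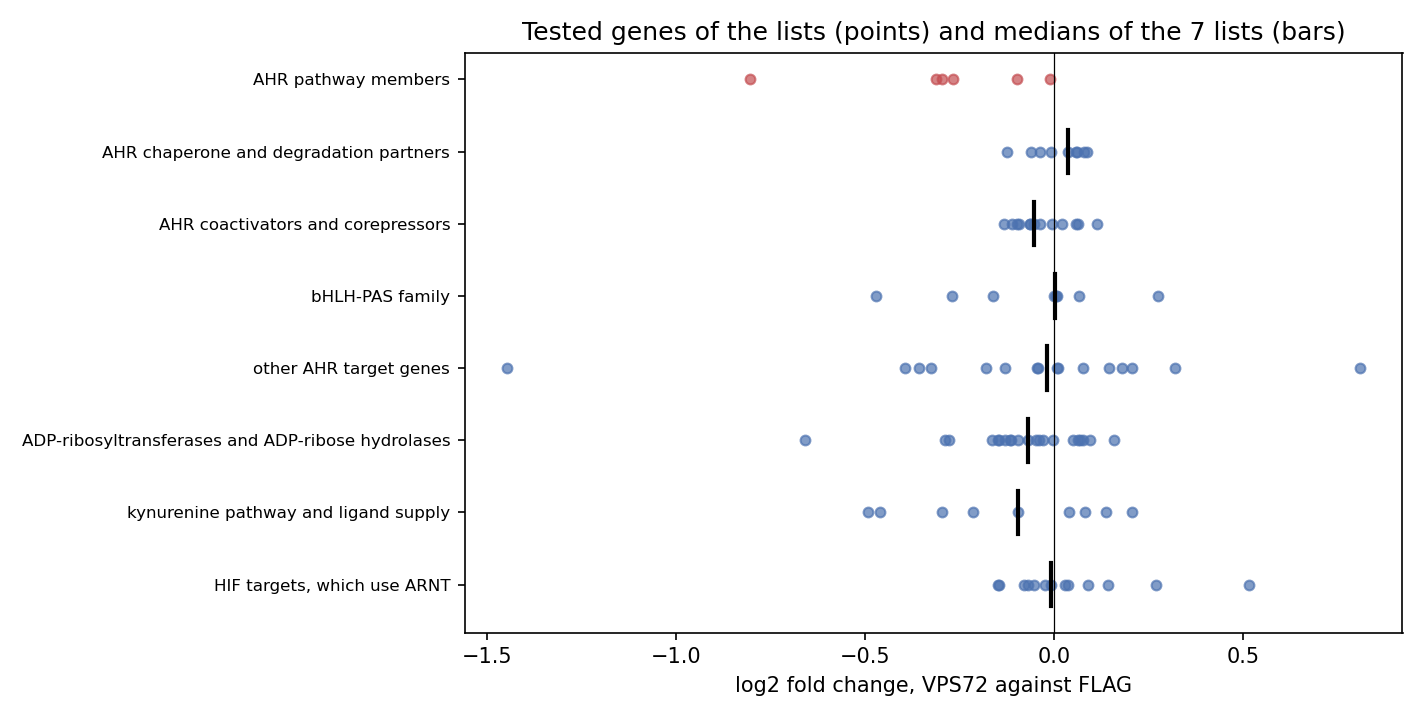
Log2 fold change of VPS72 against FLAG (horizontal axis) for the tested members (red) and the tested genes of 7 lists around the receptor (blue points), with black bars at the median of each list. The list medians lie between -0.10 and 0.04, and edgeR called 0 of the listed genes with all 6 libraries and the filter on low counts. With no filter it called LDHA and ZC3HAV1 among them.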

How the data were processed

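The authors deposited estimated counts per gene symbol, whole and not normalized, for 6 RNA-seq libraries. Per the submitters' processing notes, STAR, RSEM and limma were used, beside the builds hg19 and hg38 with no role given. Tool versions, annotation and strand setting are not stated there; the values were already whole, so rounding changed none. Per the labels' protocols, the KAPA RNA HyperPrep Kit was used on total RNA extracted by RNAzol. An estimating counter divides reads among similar genes.

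Genes were filtered with filterByExpr by group (minimum count 10, minimum total 15), which kept 99.917% to 99.931% of the counts, and scaled by TMM. VPS72 was compared with FLAG by edgeR 4.0.16 (R 4.3.3; quasi-likelihood test, Benjamini-Hochberg adjustment over all 14253 tested genes, threshold 0.05). The SE is the log2 fold change divided by the square root of F. The common coefficient of variation between libraries was 7.24%. Chi-square per degree of freedom between libraries of a group was 4.70 to 7.69, so none was taken for a second deposit. The scripts were tested on simulated data.

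The members, the 8 gene lists and the tests were chosen with earlier results of these data known. Lists are described by counts and medians. DESeq2 gave no adjusted p for some genes with few counts, so its list counts cover only the genes that have one. Named were all members, of each list up to 4 called genes or else the 3 most abundant, and the 5 profiles nearest to TIPARP. Alternatives were other scalings, filters, DESeq2 1.42.0, limma-voom (limma 3.58.1), a replicate block and each library left out. For single values, 3 against 3 libraries cannot give an exact permutation p below 0.1.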

Additional observations from a re-analysis of the deposited data

How the results depend on the processing

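TIPARP, chosen on this comparison, had log2 fold changes from -0.34 to -0.29 over 14 alternatives. AHR stayed negative and uncalled in 14 of 14 (-0.14 to -0.07), CYP1B1 in 13 of 13 (-0.33 to -0.26) and AHRR in 12 of 12 (-1.38 to -0.24), DESeq2 giving no adjusted p for CYP1B1 and AHRR. DESeq2 gave none either for KYAT3, PDCD6, CYP1B1-AS1 and MECR among the named genes. The number of called genes was 88, and 54 with the abundance trend removed, 264 with no filter on low counts, 242 with DESeq2 and 25 to 100 with a library left out, 25 without FLAG replicate 1. Library size alone gave 32 higher and 54 lower, against 60 and 28, and the abundance trend 27 and 27. With no filter or with DESeq2, 2 members were called in place of 1, CYP1A1 being the other (-0.26 and -0.27). Deviations of same-numbered libraries from their group mean correlated at -0.21, -0.08 and 0.16, and those of other pairs at -0.28 to 0.34. Centring within so few libraries constrains these values, so they cannot decide whether the replicate numbers pair the libraries. With the replicate block 32 genes were called, and TIPARP had -0.31. Signs of values near 0 turned, and the cause was not tested. HIF1A was 0.0010 with DESeq2 size factors, 0.0030 with no filter and 0.00080 with DESeq2. SLC7A5 was -0.022 with library size alone and -0.017 with the trend removed, and NDRG1 -0.0029 with library size alone. PDCD6 was 0.034 with the trend removed and 0.0012 with no filter. CYP1B1-AS1 was 0.091 with the trend removed, 0.24 with limma-voom and 0.070 with the replicate block. With each library left out, ARNT ran from -0.025 to 0.017, EP300 from -0.027 to 0.013, HIF1A from -0.017 to 0.015, SLC7A5 from -0.040 to 0.055, AFMID from -0.020 to 0.16, NDRG1 from -0.00027 to 0.078, PDCD6 from -0.11 to 0.062 and CYP1B1-AS1 from -0.47 to 0.28. The stricter filter left out AHRR and CYP1B1-AS1. Depth limits CYP1A2, and the spread between libraries limits AHRR.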
